A study of Mus musculus with 2 samples.

Results

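Lysosomal genes and the factors that switch them on were followed in single cells of the mouse fetal liver (FL). The group held 29 genes of the 32285 in the count tables: the transcription factors Tfeb, Tfe3 and Mitf, and 26 genes of lysosomal enzymes, carriers, membrane proteins and proton pump subunits. They were listed by name, though with earlier results of these data known. The cells came from livers of CD1-stock embryos at E14.5, were depleted of lineage-positive cells and sorted as LSK, the Lin- Sca1+ c-Kit+ gate that is enriched for hematopoietic stem and progenitor cells. The IκBα WT library pooled 2 embryos and the IκBα KO library pooled 3 embryos with a knockout of Nfkbia, the gene of the NF-κB inhibitor IκBα, and the sources used here name no Cre or other restriction of it to a cell type. Each genotype was therefore measured in 1 library, with no replicate, so no difference between genotypes could be tested and the values below compare these libraries.

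Lysosomes are acidic organelles in which hydrolases break down proteins, glycans and lipids that arrive by endocytosis and autophagy. A vacuolar proton pump keeps them acidic, and heavily glycosylated membrane proteins such as Lamp1 and Lamp2 line them. Tfeb, Tfe3 and Mitf are basic helix-loop-helix leucine zipper factors that stay in the cytoplasm while mTORC1 is active at the lysosome and enter the nucleus when it is not, where they bind CLEAR elements, short E-box motifs near the start sites of many lysosomal genes. Macrophages are rich in lysosomes because they engulf and digest other cells, in the FL above all the nuclei that erythroblasts expel. In adult hematopoietic stem cells, lysosomal content has been linked to quiescence.

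The tables held 3840 WT and 4928 KO barcodes with 109122324 and 100029143 UMIs in sum, and 7 barcodes occurred in both libraries. After filtering, 3458 WT and 4417 KO cells stayed, with medians of 28065 and 19560 UMIs a cell. Cells were sorted into classes by marker genes, none of which was among the 29. Stem-like cells, defined by Hlf and Mecom, numbered 390 in WT and 341 in KO. Macrophage-like cells, defined by complement C1q genes, Cd5l, Adgre1 and Csf1r, numbered 58 and 107. Many cells did not carry the marker that the label LSK names: 48.3% of the kept WT cells and 51.3% of the KO cells were erythroid-like, with 1.03 and 1.11 CPM of Ly6a, the gene of Sca1, against 29.6 and 33.8 CPM in stem-like cells. The genotype labels matched the counts, since Nfkbia had 141 UMIs (20.2 CPM) in WT stem-like cells and 0 in KO stem-like cells. No WT stem-like cell carried Y-linked transcripts without Xist, whereas 45 of the 341 KO stem-like cells did (13.2%), so the KO pool held male cells and the sexes of the pools differed. A class called Gata1+Gata2+ was led by mast cell and basophil genes, and the class of Kit+Cd34+ cells without Hlf and Mecom by the T-cell receptor genes Trbc1 and Trbc2 in WT and by Cd74, Tespa1 and Trbc2 in KO.

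Levels are given as CPM, the UMIs of a gene over all cells of a class, scaled to 1000000 UMIs of that class. The libraries count 3′ ends, 1 tag per molecule, so CPM of different genes were set side by side with no correction for length. A CPM is a share of the class's RNA and says nothing about the RNA content of a cell. Differences are log2 ratios with exact 95% intervals, which cover counting error only and not the spread between embryos. A gene entered a comparison with at least 50 UMIs over both sides, and was called higher or lower past 1.3-fold, or past 2-fold between macrophage-like and stem-like cells.

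E-boxes with the core CACGTG stood in the promoters of 9 of the 25 genes with a RefSeq promoter window. The window ran from 250 bases before to 50 bases after the start site (GRCm38.p6). The core CACGTG, a palindrome that reads alike on both strands, occurred in 36.0% of these genes against 8.09% of all 27025 genes with a window. The longer TCACGTG was present in 8 of the 25 (32.0% against 4.29% of all genes), and GTCACGTG in 7 (28.0% against 2.55%), with both strands searched and each longer motif containing the shorter. The 7 genes with GTCACGTG were Lamp1, Ctsa, Ctsd, Gla, Glb1, Mcoln1 and Atp6v0d1. Of the 16 E-boxes, 14 had their middle upstream of the start site, 9 of them within 100 bases of it. No E-box had both GT before and AC after the core, and that of Ctsl had the core alone. The promoters of Ctsb, Npc1, Asah1 and Atp6v1h were not analysed here. The 100 bases just upstream of the start of 5 of the genes are shown 5′ to 3′ on the gene's strand because they place these E-boxes, with CACGTG in capitals. They are at chr8:13159061-13159160 (plus strand) for Lamp1, chr2:164833673-164833772 (plus) for Ctsa, chr7:142387828-142387927 (minus) for Ctsd, chr9:114400978-114401077 (plus) for Glb1 and chr8:3500419-3500518 (plus) for Mcoln1.
Lamp1: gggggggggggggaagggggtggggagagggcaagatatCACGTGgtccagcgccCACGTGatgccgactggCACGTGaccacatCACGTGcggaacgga
Ctsa: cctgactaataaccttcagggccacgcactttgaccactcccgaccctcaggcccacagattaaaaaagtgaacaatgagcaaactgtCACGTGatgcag
Ctsd: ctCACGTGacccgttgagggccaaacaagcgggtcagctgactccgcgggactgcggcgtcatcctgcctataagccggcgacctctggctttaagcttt
Glb1: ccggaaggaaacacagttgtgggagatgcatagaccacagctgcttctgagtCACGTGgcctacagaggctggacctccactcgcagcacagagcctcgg
Mcoln1: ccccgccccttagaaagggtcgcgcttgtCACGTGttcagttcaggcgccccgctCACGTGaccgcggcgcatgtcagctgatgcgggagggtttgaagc
Lamp1, the major glycoprotein of the lysosomal membrane, carried 4 E-boxes in this stretch and Mcoln1, the lysosomal calcium channel, carried 2. CLEAR elements are known from lysosomal genes, so the higher shares are no independent result. A match is a description of the letters and does not show that a factor binds there.

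In stem-like cells the 3 factors were among the lowest genes of the group. Tfeb had 4.44 CPM (31 UMIs) in WT and 5.74 CPM (26 UMIs) in KO, a log2 KO/WT of 0.37 (−0.44 to 1.17). Tfe3 had 5.30 and 6.19 CPM, and Mitf had 2.29 and 3.31 CPM with 31 UMIs over both libraries, under the minimum for a comparison. All 3 intervals of KO/WT included 0 in these cells. Macrophage-like cells held 10.3 CPM of Tfeb in WT and 10.2 in KO, 14.7 and 22.3 CPM of Tfe3, and 6.99 and 12.8 CPM of Mitf. These were 2.32-fold (WT) and 1.77-fold (KO) the stem-like level for Tfeb, and 2.78-fold and 3.60-fold for Tfe3.

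Across the other classes of at least 50 cells Tfeb was lowest in endothelial-like cells, at 0.652 CPM in WT and 1.62 in KO, and it ranged from 2.31 to 4.66 CPM in WT and from 2.82 to 6.21 CPM in KO over erythroid-like, neutrophil-like, lymphoid-like, Gata1+Gata2+ and Kit+Cd34+ cells. Monocyte-like cells had 7.02 CPM in WT and 16.4 in KO, the highest KO level of Tfeb. Tfe3 was spread more evenly, from 4.10 CPM in WT Kit+Cd34+ cells to 20.9 CPM in WT endothelial-like cells, where KO cells had 14.6. In erythroid-like cells, the largest class, Tfe3 had 7.26 and 6.91 CPM, Tfeb 2.44 and 2.88 CPM and Mitf 0.609 and 0.712 CPM. Mitf was above 4 CPM in macrophage-like cells of both libraries and WT monocyte-like cells alone.

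**Figure D1:**
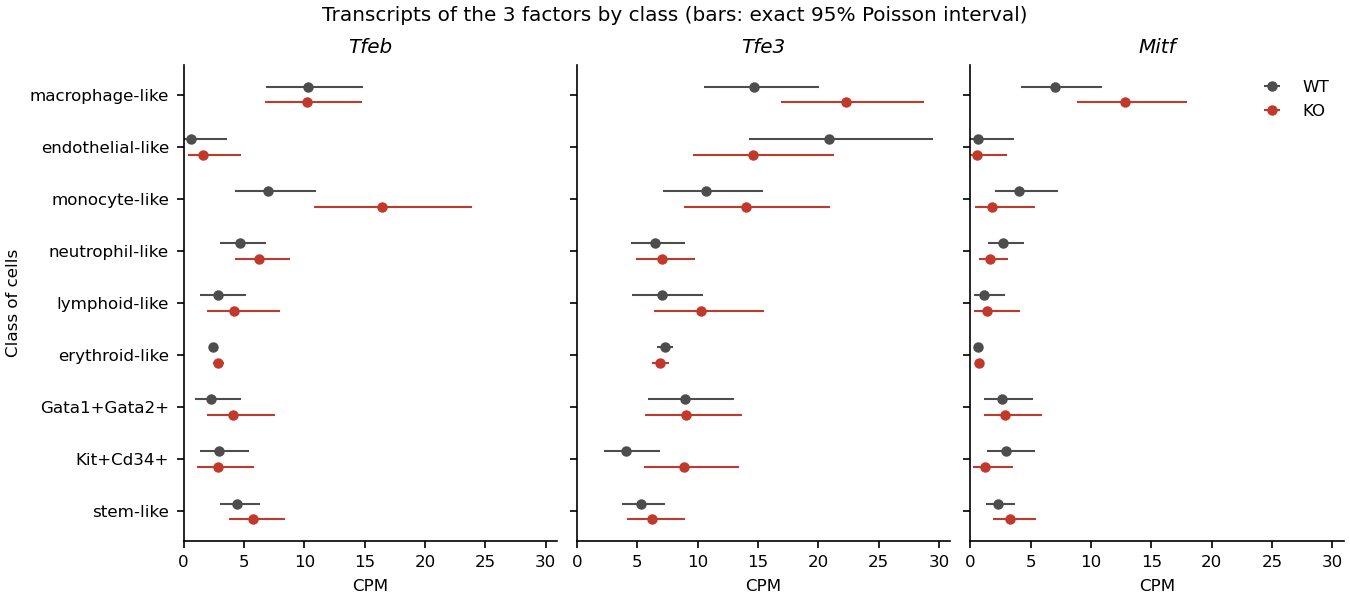
Levels of Tfeb, Tfe3 and Mitf by cell class, in CPM with exact 95% Poisson intervals, for the WT and the KO library. The highest points are Tfe3 in KO macrophage-like cells (22.3 CPM) and WT endothelial-like cells (20.9 CPM), and Mitf stays at or below 4.06 CPM outside macrophage-like cells.

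In stem-like cells the group made up 1248 CPM in WT and 1198 CPM in KO. Npc2, which carries cholesterol inside the lysosome, was the highest gene at 196 and 205 CPM. Cd63, a tetraspanin of late endosomes and lysosomes, followed with 122 and 107 CPM, and Lamp1 with 117 and 109 CPM. The aspartic protease gene Ctsd had 79.5 and 81.3 CPM, and Gusb, the gene of beta-glucuronidase, had 72.5 and 74.7 CPM. Among these 5, only the interval of Cd63 lay away from 0 (log2 KO/WT −0.18, −0.35 to −0.02), and none was past 1.3-fold.

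Few genes of the group were past 1.3-fold between KO and WT stem-like cells. Of 28 genes compared, 1 was higher and 0 were lower in KO, where 4.87% and 6.66% of the 9442 genes compared were higher and lower. The median log2 KO/WT was −0.02 over the group and 0.00 over all genes. The count depended on the cells used: with female cells alone 6 genes were past 1.3-fold (Smpd1, Npc1, Atp6ap1, Tfeb and Gla higher, Atp6v1h lower), and after thinning to 8000 UMIs 4 were. The share of all genes past the fold was not computed for these cells, so these counts cannot be read as a trait of the group. The gene past the fold was Smpd1, of acid sphingomyelinase, with 9.02 CPM (63 UMIs) in WT and 12.8 CPM (58 UMIs) in KO (log2 0.51, −0.03 to 1.04), an interval that includes 0. The lowest was Ctsa, of the serine carboxypeptidase cathepsin A that also protects beta-galactosidase and neuraminidase, with 45.0 and 34.7 CPM (−0.37, −0.66 to −0.09), just short of the fold. Scarb2, the receptor that brings beta-glucocerebrosidase to lysosomes, had 12.5 and 9.72 CPM (−0.36, −0.92 to 0.18).

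**Figure D2:**
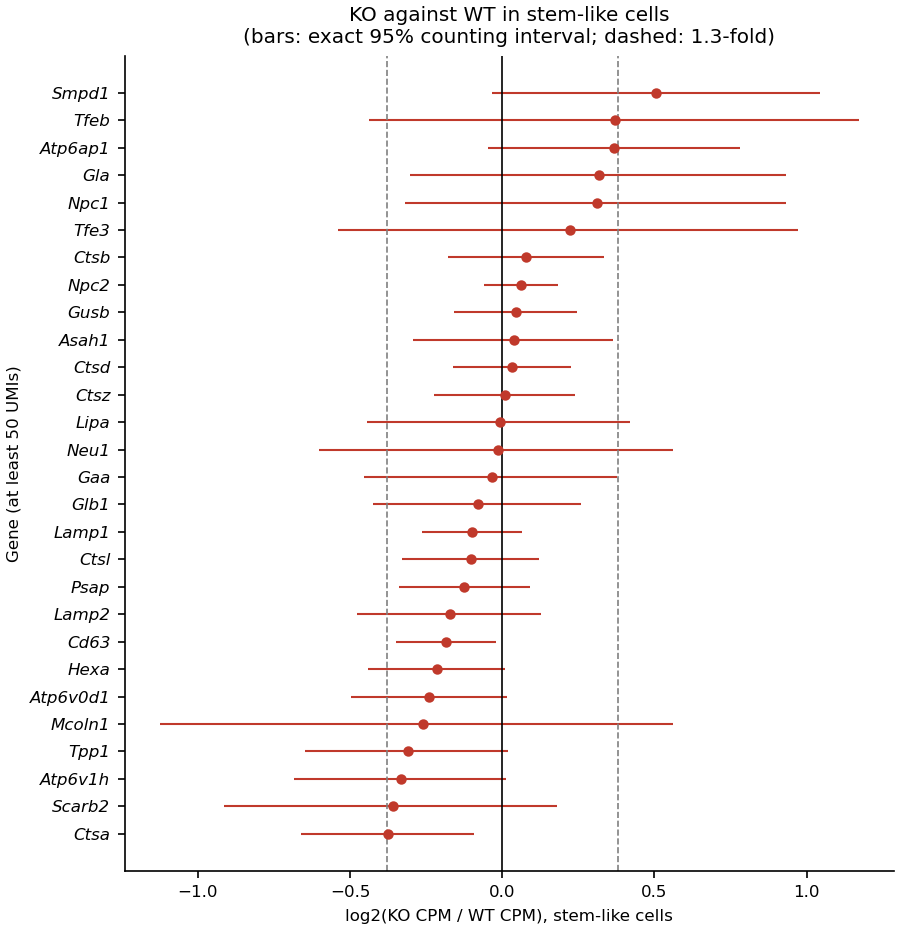
Log2 ratio of KO over WT CPM in stem-like cells for the 28 genes with at least 50 UMIs, with exact 95% intervals and dashed lines at 1.3-fold. Smpd1 is the gene past a line, and the intervals of Ctsa and Cd63 lie below 0.

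Summed by role, the differences in stem-like cells were small. The 6 proteases (Ctsa, Ctsb, Ctsd, Ctsl, Ctsz and Tpp1) had 320 CPM in WT and 304 in KO, and the 6 glycosidases 200 and 193 CPM. The 6 genes of lipid handling, among them Npc1 and Npc2, Lipa of acid lipase and Asah1 of acid ceramidase, had 327 and 336 CPM. The 5 membrane proteins had 292 and 262 CPM (log2 −0.16, −0.26 to −0.05), and Cd63 and Lamp1 held most of that sum. The 3 proton pump genes had 96.4 and 87.1 CPM (−0.15, −0.33 to 0.03).

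Of 102 other genes of the pathway, 84 could be compared in stem-like cells, and 3 were higher and 3 lower, with a median log2 KO/WT of −0.01. These shares were below the 4.87% and 6.66% of all genes. The higher ones were Acp5, an acid phosphatase (0.60), Mtor, the kinase of mTORC1 (0.53), and Slc17a5, the sialic acid exporter (0.38). Lower were Cpq, a carboxypeptidase (−0.48), Ctso, of cathepsin O (−0.40), and Map1lc3a, of the autophagosome (−0.39). None of 13 further proton pump subunits and none of 8 genes of sorting to lysosomes was past 1.3-fold.

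Stem-like cells were then divided by Mki67, a gene of proliferating cells: 252 WT and 224 KO cells had an Mki67 UMI, and 138 and 117 had none. Cells without one still held other proliferation genes, more so in KO. Top2a had 83.1 CPM in WT and 186 in KO Mki67- cells, against 663 and 738 in Mki67+ cells. Cdk1 had 67.1 and 94.3 CPM, against 222 and 255. The division is therefore not one of cycling against resting cells. The group was lower in Mki67+ cells in both libraries. In WT, 8 of 25 genes were lower and 1 was higher, where 13.2% and 14.8% of all genes compared were lower and higher, and the median log2 Mki67+/Mki67- was −0.28 against 0.01 over all genes. In KO, 7 of 21 genes were lower and 0 higher, where 13.3% and 16.1% of all genes were, with a median of −0.22 against 0.03. Of the 21 genes compared in both libraries, 14 were lower by any amount in both (66.7%, against 29.7% of all genes) and 0 were higher in both (37.2% of all genes).

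Past 1.3-fold in both libraries were 3 of the 21, against 4.33% of all genes, and they were Ctsl, Gaa and Cd63. Ctsl, a cysteine protease, had 80.3 CPM in WT Mki67- cells and 55.7 CPM in Mki67+ cells (log2 −0.53, −0.82 to −0.23), and in KO 88.7 and 48.2 CPM (−0.88, −1.25 to −0.50). Gaa, the glycogen-degrading alpha-glucosidase, had 25.3 and 15.9 CPM in WT (−0.67, −1.21 to −0.12) and 29.6 and 14.2 CPM in KO (−1.06, −1.73 to −0.37). Cd63 had 165 and 106 CPM in WT (−0.63, −0.84 to −0.43) and 147 and 94.7 CPM in KO (−0.63, −0.91 to −0.35). In each of these 3 genes both Mki67+ levels lay below both Mki67- levels. Cells were also thinned to 8000 UMIs each, with shallower cells left out and the gates and the Mki67 split made anew. The cells compared were therefore not the same. Gaa in WT then turned to 0.09, and Ctsl and Cd63 in KO stood at −0.19 and −0.26. Ctsl and Cd63 in WT stayed at −0.99 and −0.48.

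Several genes were lower in 1 library only. Neu1, of neuraminidase (−0.94), Tpp1, a tripeptidyl peptidase (−0.79), and Lamp2 (−0.58) were lower in WT Mki67+ cells, whereas in KO the log2 values were 0.05 for Tpp1 and −0.02 for Lamp2 and Neu1 had too few UMIs. Atp6ap1, an accessory subunit of the proton pump, was lower in KO (−0.90) and at −0.29 in WT. The difference between the libraries was not tested. Tfeb had 7.15 CPM in WT Mki67- cells and 3.48 in Mki67+ cells, and 7.39 and 5.23 CPM in KO, with 18 or fewer UMIs in each, and both intervals included 0.

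Other features moved with the same division. Mki67+ cells were deeper, with medians of 19298 against 12414 UMIs in WT and 13980 against 8250 in KO. Stem cell genes were lower in them too, with log2 values of −1.26 in WT and −1.04 in KO for Procr, −1.29 and −1.56 for Pdzk1ip1, and −0.59 and −0.69 for Mecom. Their part in the difference of the lysosomal genes was not tested. Of the further pathway genes, 9 of 75 were higher and 12 lower in WT, and 3 of 65 higher and 13 lower in KO, where 14.8% and 13.2% (WT) and 16.1% and 13.3% (KO) of all genes were. Other hydrolases, 17 of the 75 genes compared in WT and 15 of the 65 in KO, held 6 of these 12 and 9 of these 13, among them Man2b1, of alpha-mannosidase, with −0.57 in WT and −0.43 in KO.

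**Figure D3:**
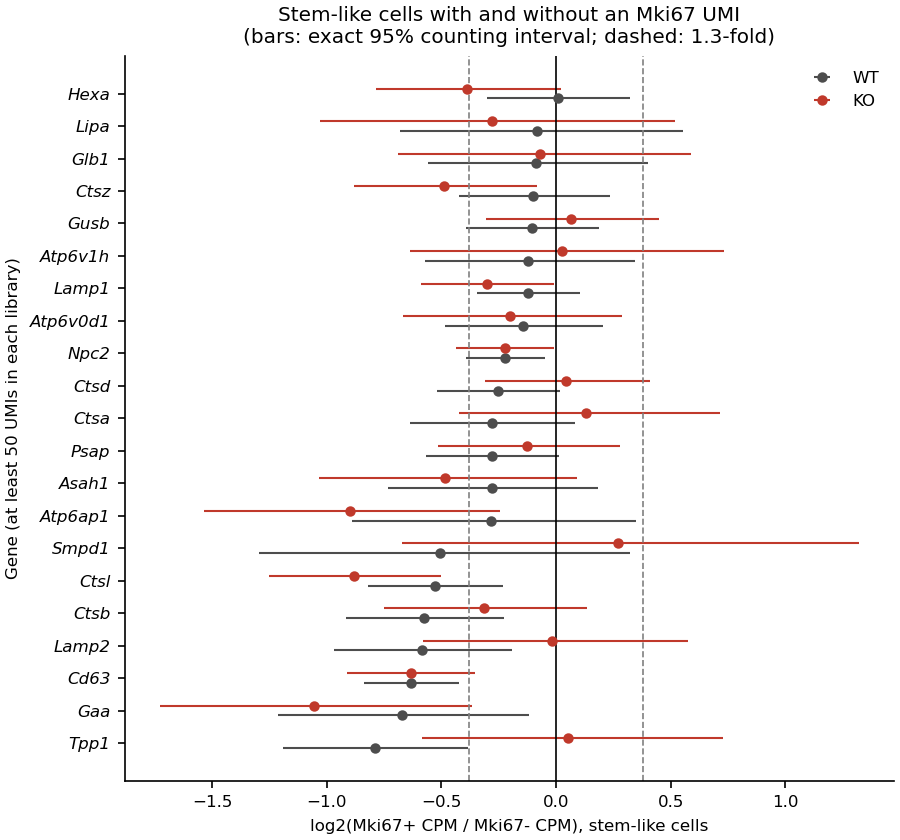
Log2 ratio of CPM in Mki67+ over Mki67- stem-like cells for the 21 genes with at least 50 UMIs in each library, with exact 95% intervals and dashed lines at 1.3-fold, in grey for WT and red for KO. For 14 genes both points lie below 0, and Ctsl, Gaa and Cd63 lie past 1.3-fold in both.

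Macrophage-like cells carried the most lysosomal transcripts. Together the 29 genes made up 5027 CPM of WT macrophage-like cells and 7016 CPM of KO ones, against 1248 and 1198 CPM in stem-like cells. Of 27 genes compared in each library, 20 were at least 2-fold higher than in stem-like cells in WT, where 7.15% of all genes compared were, and 21 in KO, where 10.4% were. None was 2-fold lower, where 7.35% and 6.73% of all genes were. The median log2 ratio was 1.48 in WT and 1.87 in KO, against −0.09 and −0.05 over all genes.

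The proteases led the difference. Ctsb, a cysteine protease, had 45.4 and 999.5 CPM in WT stem-like and macrophage-like cells (22.0-fold) and 47.9 and 1482 CPM in KO (30.9-fold). Ctsd was 10.8-fold and 13.7-fold higher, and Ctsz, a carboxypeptidase, 6.62-fold and 12.2-fold. Lipa was 5.81-fold and 7.62-fold higher. Psap, the precursor of the saposins that activate sphingolipid hydrolases, was 4.99-fold and 8.11-fold higher. All of these folds rose in both libraries when macrophage-like cells of any other gate but monocyte were left out. Against stem-like cells Ctsb was then 39.9-fold higher in WT and 46.9-fold in KO, Ctsd 20.7-fold in both, and Ctsz 11.0-fold and 18.4-fold.

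At the other end were genes with ratios near 0 in a library. Glb1, of beta-galactosidase, had a log2 macrophage-like/stem-like of −0.33 (−0.78 to 0.09) in WT and 0.11 (−0.33 to 0.54) in KO. Atp6v1h, a regulatory subunit of the proton pump, had 0.01 (−0.38 to 0.39) in WT and 0.99 in KO. Smpd1 had 1.08 in WT and 0.00 (−0.65 to 0.64) in KO. Without the cells of other gates Glb1 in WT turned to 0.37 (−0.41 to 1.07), Atp6v1h in WT moved to 0.68 (0.00 to 1.29), Smpd1 stood at 1.71 in WT and −0.33 (−1.36 to 0.58) in KO, and Tfeb in WT at 2.41. Cd63 (0.60 and 1.19), Gusb (0.62 and 0.82), Gaa (0.68 and 1.06), Gla of alpha-galactosidase (1.02 and 0.67) and Tfeb (1.21 and 0.83) were the others of the 5 lowest in a library.

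Genes with and without GTCACGTG in the promoter had like medians of this ratio, 1.46 for 6 genes against 1.51 for 17 in WT and 2.01 against 1.87 in KO. Ctsd and Glb1, each with 1 E-box in the stretch printed, were among the highest and the lowest. Of the other pathway genes, 27 of 88 were at least 2-fold higher in WT macrophage-like cells and 3 lower, and in KO 38 of 89 were higher and 3 lower. The highest were Ctss and Lgmn, endosomal proteases, and Slc11a1, a metal transporter of phagosomes, with log2 ratios of 7.31, 6.35 and 6.30 in WT.

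Over 9 classes of at least 50 cells in each library, 19 of the 29 genes had their highest level in macrophage-like cells in both libraries, as had 5.75% of all genes. Of the other 10, Ctsl and Lamp2 were highest in endothelial-like cells in both, with 643 and 688 CPM of Ctsl and 176 and 168 CPM of Lamp2 in WT and KO. Cd63 and Gla were highest in neutrophil-like cells in both, with 312 and 431 CPM and 17.6 and 15.4 CPM. Glb1 was highest in WT Kit+Cd34+ cells (34.3 CPM) and in KO Gata1+Gata2+ cells (34.8 CPM). In these 5 genes the class of highest level was not macrophage-like in either library, and for Gla the macrophage-like level was next to it at 15.1 and 14.7 CPM.

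The other 5 changed their highest class between libraries. Tfeb was highest in monocyte-like cells in KO, Tfe3 in endothelial-like cells in WT, Smpd1 in Gata1+Gata2+ cells in KO (20.5 CPM), Mcoln1 in stem-like cells in WT (5.30 CPM) and Atp6v1h in monocyte-like cells in WT (34.7 CPM). Erythroid-like cells, which lose their organelles as they mature, had 121 and 128 CPM of Ctsb, above the 45.4 and 47.9 CPM of stem-like cells, but only 6.37 and 7.09 CPM of Neu1 and 27.2 and 29.2 CPM of Cd63, against 122 and 107 CPM of Cd63 in stem-like cells.

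**Figure D4:**
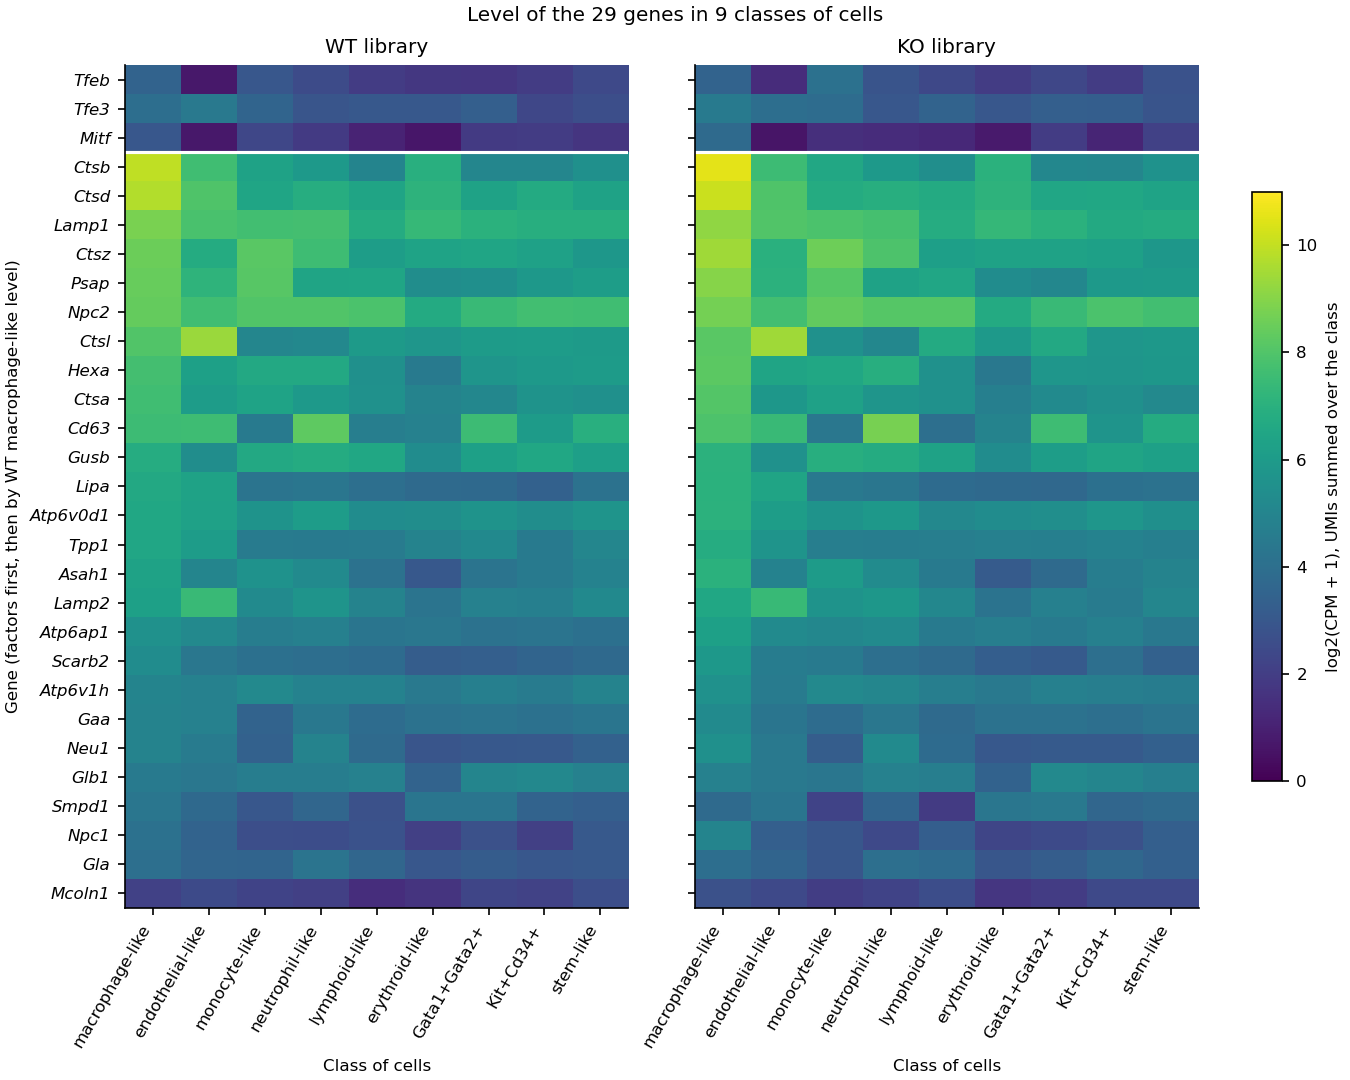
Log2(CPM + 1) of the 29 genes in 9 cell classes, as colour, in the WT and the KO library, 1 row per gene. Macrophage-like cells hold the highest level of 21 genes in WT and 22 in KO, while Ctsl and Lamp2 peak in endothelial-like cells and Cd63 in neutrophil-like cells.

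As a measure of macrophage RNA in stem-like cells, the 6 genes of the macrophage gate stood there at 0.495% (WT) and 0.255% (KO) of their macrophage-like level, with none at 0. The gate itself lowers these values, since it came first and took out cells rich in those genes. The 6 further macrophage markers, not used in the gate, stood at 1.34% and 0.564% in stem-like cells. The lysosomal genes outside the factors stood at 24.7% and 17.0% of their macrophage-like level, and Ctsb, the most macrophage-enriched of them, at 4.54% and 3.24%.

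Between KO and WT macrophage-like cells, 17 of 28 genes were higher in KO and 1 was lower, where 17.5% and 8.37% of the 7905 genes compared were. The median log2 KO/WT was 0.41, against 0.04 over all genes. Ctsz had 371 CPM in WT and 689 in KO (log2 0.89, 0.78 to 1.01), Psap 343 and 513 CPM (0.58, 0.46 to 0.70) and Ctsb 999.5 and 1482 CPM (0.57, 0.50 to 0.64). Npc1, the membrane partner of Npc2 in cholesterol export, had 16.2 and 30.2 CPM (0.90, 0.35 to 1.46). Smpd1 was the gene that was lower, with 19.1 and 12.8 CPM (−0.58, −1.24 to 0.08). Of the further pathway genes, 37 of 87 were higher and 1, Igf2r, was lower, with a median of 0.33.

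The macrophage-like cells of the libraries differed in more than these genes. The 6 genes of the gate had a median log2 KO/WT of 0.64, with 5 of 6 higher and sums of 2806 and 4247 CPM. The 6 further macrophage markers had a median of 0.73, with 5 higher and sums of 1156 and 2036 CPM, and Hmox1, of heme oxygenase, went from 545 to 1104 CPM. Of 11 erythroid markers compared, 6 were lower and the median was −0.40. The median depth was 42065 UMIs a cell in WT and 18560 in KO. In WT 13 of 58 macrophage-like cells also passed the erythroid gate, and in KO 18 of 107.

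Cells that passed no gate but those of macrophages and monocytes numbered 22 in WT and 68 in KO. Among them 7 of 23 lysosomal genes (30.4%) were higher in KO, near the 28.7% of the 4298 genes compared. None of the 23 was lower, where 475 of the 4298 were. The median was 0.27 against 0.12 over all genes. The gate genes had a median of 0.31 and the further macrophage markers 0.36 in these cells. Ctsz (0.75), Psap (0.58) and Cd63 (0.60) were among the 7, and Ctsb stood at 0.31 and Ctsd at 0.03. Among the 107 KO macrophage-like cells 15 were male (14.0%) and among the WT cells none. With female cells alone the group's median was 0.34, and fewer genes were past 1.3-fold, though the share over all genes was not computed. Lamp1 (0.33), Ctsa (0.24), Psap (0.35), Lipa (0.35), Cd63 (0.08) and Atp6v0d1 (0.376) then fell short of that fold. Tfeb and Mitf had too few UMIs. Tfe3, Ctsb, Ctsz, Hexa, Neu1, Npc1, Asah1, Scarb2, Atp6v1h and Atp6ap1 stayed higher, and Smpd1 stayed lower. The part of depth, of other cells' RNA and of the gate genes' own difference in these values was not tested.

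**Figure D5:**
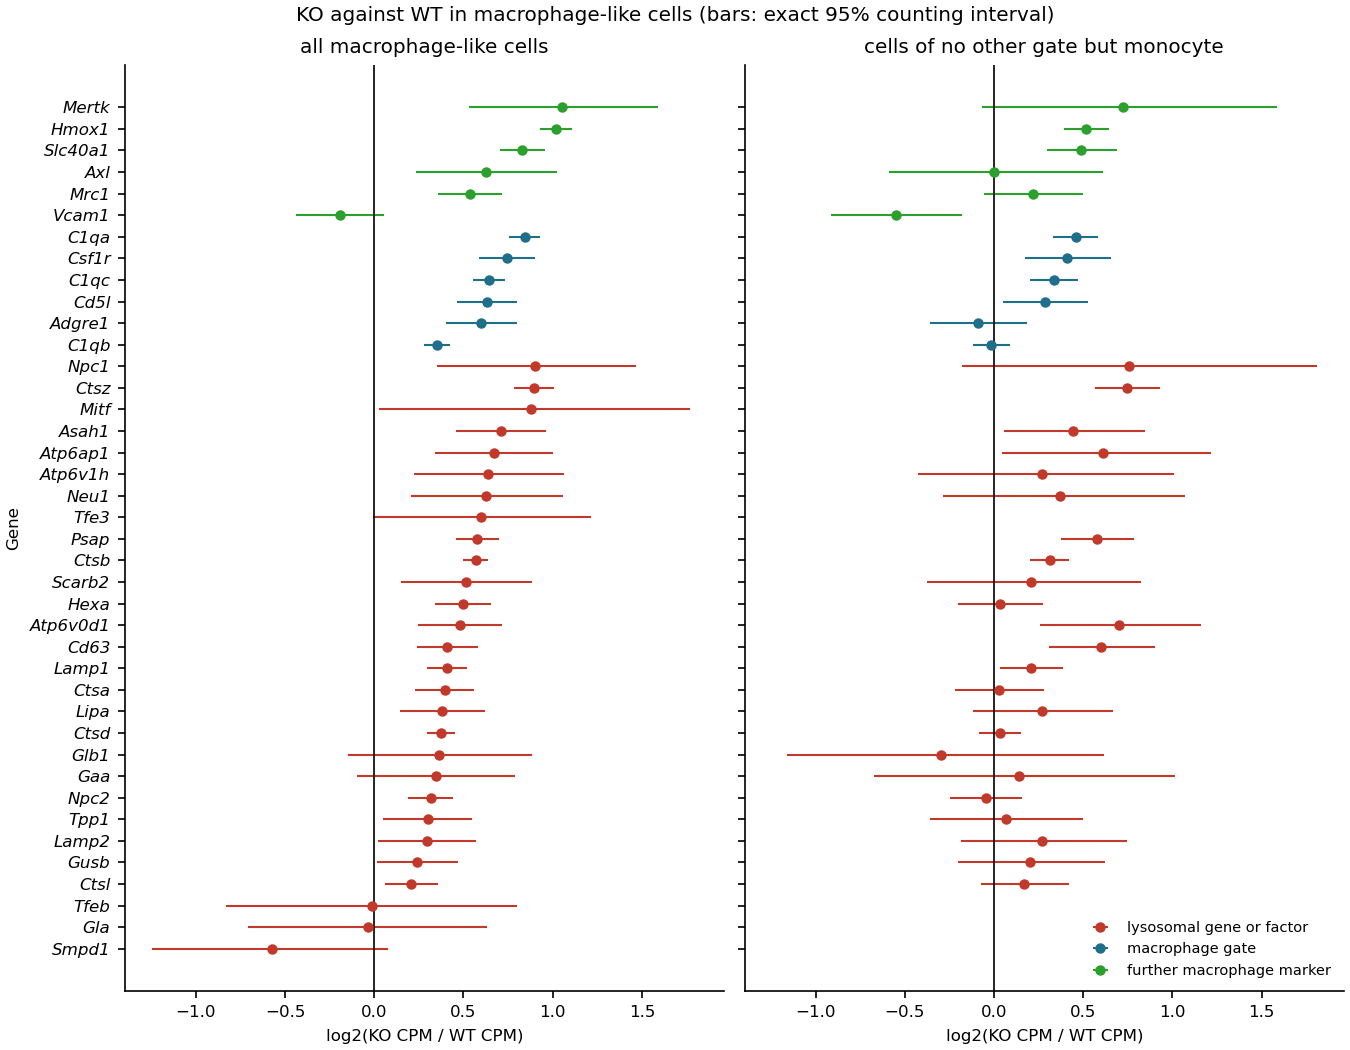
Log2 ratio of KO over WT CPM in macrophage-like cells, for all such cells and for those that pass no gate but the monocyte gate besides, with exact 95% intervals and the lysosomal genes and factors in red, the gate genes in blue and the further macrophage markers in green. The lysosomal genes have a median of 0.41 in all cells and 0.27 in the others, below the gate genes at 0.64 and 0.31.

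The other classes differed in how many genes were past 1.3-fold. In erythroid-like cells, with the most UMIs, 0 of 29 genes were higher and 0 lower, where 5.34% and 3.43% of all genes were, and the median was 0.00. In endothelial-like cells 1 of 24, Smpd1, was higher (11.7% of all genes) and 2, Tfe3 and Gaa, were lower (8.45%). In lymphoid-like cells 2 of 23 were higher (8.71%), Ctsl with 62.7 and 104 CPM and Ctsb with 29.9 and 42.9 CPM, and 1 was lower (8.13%), Cd63 with 25.1 and 15.4 CPM. In Gata1+Gata2+ cells 2 of 21, Ctsl and Atp6ap1, were higher (6.67%) and 3, Psap, Asah1 and Tpp1, were lower (8.26%). With female cells alone Psap (−0.30), Tpp1 (−0.29) and Atp6ap1 (0.20) fell short of the fold there, and Ctsl (0.49) and Asah1 (−0.49) did not. In Kit+Cd34+ cells 5 of 23, namely Gla, Lipa, Scarb2, Atp6v0d1 and Atp6ap1, were higher (9.69%) and 0 lower (6.64%), with a median of 0.00.

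Neutrophil-like and monocyte-like cells, like Kit+Cd34+ cells, had genes past the fold in the higher direction alone. In neutrophil-like cells 3 of 27 genes were higher in KO (4.53% of all genes) and 0 lower (7.50%): Cd63 with 312 and 431 CPM (log2 0.47), Tfeb with 4.66 and 6.21 CPM (0.42) and Atp6ap1 with 27.0 and 37.1 CPM (0.46). In monocyte-like cells 8 of 22 were higher (11.0%) and 0 lower (8.70%), with a median of 0.25 against 0.02 over all genes. Ctsz went there from 291 to 384 CPM (0.40) and Asah1 from 48.0 to 63.9 CPM (0.41). With female cells alone the monocyte-like median was 0.13. Ctsz then fell short of the fold at 0.35, and Asah1 stood at 0.40.

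Atp6ap1 and Npc2 had a KO level above the WT level in each of the 9 classes when cells of both sexes were used. These genes were picked after their values were seen, and the share of all genes with this pattern was not computed. For Npc2 the log2 values ran from 0.00 (−0.05 to 0.05) in erythroid-like to 0.32 in monocyte-like cells. For Atp6ap1 they ran from 0.08 in endothelial-like to 0.67 in macrophage-like cells. Erythroid-like cells had 19.3 CPM in WT and 24.8 in KO (0.36, 0.25 to 0.47), the most closely measured of these ratios, and stem-like cells had 15.8 and 20.3 CPM (0.37, −0.05 to 0.78). With female cells alone, Npc2 stood at −0.04 in erythroid-like cells and Atp6ap1 at −0.03 in lymphoid-like cells. Atp6ap1 is on chromosome X (GRCm38, 74297097 to 74304721, plus strand) and the pools differed in sex. Among cells with Xist and no Y-linked transcript the erythroid-like ratio was 0.39 (0.27 to 0.51), and male over female KO erythroid-like cells gave −0.12 (−0.32 to 0.08). Tfe3, Lamp2 and Gla, also X-linked, had erythroid-like log2 KO/WT values of −0.07, −0.06 and −0.08 with cells of both sexes. The part of sex in the Atp6ap1 difference was not tested. With 1 library per genotype, embryo and genotype cannot be told apart.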

How the data were processed

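Single-cell 3′ v3 libraries were sequenced from 1 WT and 1 KO pool of FL LSK cells. The authors aligned reads to mm10 and counted UMIs with Cell Ranger 6.0.0, per the labels and the submitters' processing notes, and the deposited matrices hold raw counts per gene and barcode. Barcodes under 1000 genes or over 20% mitochondrial UMIs were dropped, which left 3458 WT and 4417 KO cells, and no doublets were removed. The 11 classes were gated on marker UMIs (stem-like: at least 2 UMIs over Hlf and Mecom, both detected), and classes under 50 cells in a library gave levels only. An exception was the macrophage-like cells of no other gate but monocyte, which were compared with 22 WT and 68 KO cells. UMIs were summed per class and library and scaled to 1000000. Poisson, binomial and conditional ratio intervals at 95% were exact (SciPy 1.17.1, NumPy 2.4.6, pandas 2.3.3, Python 3.11.15), and the ratio script was tested on simulated data. With 1 library per genotype no test was made. The group and all gene lists were chosen with earlier results of these data known. Named with values were the 3 factors, the 5 highest genes in stem-like cells, genes past 1.3-fold there or past it between Mki67+ and Mki67- cells in both libraries, the 5 highest and 5 lowest macrophage-like/stem-like ratios, and genes whose highest class was not macrophage-like, each with at least 50 UMIs over both sides, and the pathway genes past 1.3-fold in stem-like cells. Other genes named with values were chosen after these were seen. Promoter windows came from RefSeq (GRCm38.p6) and gene positions from GENCODE (GRCm38). Alternatives changed the cell filter, doublets (scanpy 1.11.5), gates, scaling, UMI minimum, depth (8000 UMIs a cell, shallower cells left out) and Mki67 cut-off. Reads shared by Cd63 and its processed pseudogene make the count of Cd63 uncertain.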

Additional observations from a re-analysis of the deposited data

Results flagged for a closer look

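The log2 KO/WT of 4 lysosomal genes had a counting interval above 0 in some cell classes and below 0 in others. How many of all genes have such opposite intervals was not counted, so the number cannot be read as a trait of lysosomal genes. Lamp1 stood at 0.41 in macrophage-like and 0.21 in monocyte-like cells, and at −0.074 in erythroid-like and −0.23 in Kit+Cd34+ cells. Ctsa stood at 0.39 in macrophage-like cells, at −0.22 in erythroid-like cells and at −0.37 in stem-like cells. Tpp1 stood at 0.30 in macrophage-like cells, at −0.13 in erythroid-like cells and at −0.47 in Gata1+Gata2+ cells. Cd63 stood at 0.41 in macrophage-like, 0.10 in erythroid-like and 0.47 in neutrophil-like cells, and at −0.71 in lymphoid-like, −0.18 in stem-like and −0.34 in Kit+Cd34+ cells. The opposite signs depended in part on the cells used. In macrophage-like cells of no other gate but monocyte, Ctsa stood at 0.03 (−0.22 to 0.28) and Tpp1 at 0.06 (−0.36 to 0.50), so no class had an interval above 0 for these genes, whereas Lamp1 stood at 0.21 (0.03 to 0.39) and Cd63 at 0.60 (0.31 to 0.90). With female cells alone the macrophage-like values were 0.20 (−0.10 to 0.50) for Tpp1 and 0.08 (−0.13 to 0.29) for Cd63, Tpp1 in Gata1+Gata2+ cells stood at −0.29 (−0.80 to 0.22), and Cd63 in neutrophil-like and lymphoid-like cells at 0.40 (0.30 to 0.51) and −1.12 (−1.94 to −0.37). The differences between classes were not tested, and with 1 library per genotype the spread between embryos is unknown.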

How the results depend on the processing

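Of 149 medians and counts recomputed under an alternative, 103 moved by less than their counting error or 1.5-fold and 46 by more. Over all alternatives the median of the group was −0.22 to −0.01 for KO/WT in stem-like cells, −0.35 to −0.20 (WT) and −0.31 to −0.13 (KO) for Mki67+/Mki67-, 1.40 to 2.04 (WT) and 1.75 to 2.81 (KO) for macrophage-like/stem-like, and 0.27 to 0.52 for KO/WT in macrophage-like cells. Below, the median for KO/WT in a class is called by the class, and the count of genes past 1.3-fold in stem-like cells, 1 as reported, is called the stem-like count. The share of all genes past this fold was not computed under the alternatives.

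Without the 135 WT and 256 KO doublets called by Scrublet, the stem-like count was 2, macrophage-like/stem-like 1.55 (WT) and 2.17 (KO), macrophage-like 0.52 and erythroid-like −0.019. A stricter stem gate gave a stem-like median of −0.22, a count of 4 and macrophage-like/stem-like in KO of 1.98, and a wider gate a count of 3 and macrophage-like/stem-like in WT of 1.40. CPM without haemoglobin, mitochondrial and ribosomal protein genes gave a count of 2, Mki67+/Mki67- in WT of −0.35, macrophage-like/stem-like of 1.40 and 1.75, macrophage-like 0.36 and erythroid-like 0.018. Scaling by the median of ratios gave a count of 3. The mean of CPM per cell gave a count of 5, macrophage-like/stem-like of 1.68 and 2.16 and Gata1+Gata2+ −0.060. A minimum of 20 UMIs gave a count of 2 and Kit+Cd34+ 0.085. A minimum of 200 UMIs gave a stem-like median of −0.10, a count of 0, macrophage-like/stem-like of 1.54 and 2.25 and Kit+Cd34+ −0.15. Cells thinned to 8000 UMIs gave a stem-like median of −0.10, a count of 4, Mki67+/Mki67- of −0.20 and −0.13, macrophage-like/stem-like in KO of 2.81, endothelial-like −0.11, erythroid-like −0.035 and Gata1+Gata2+ −0.26, and turned Gaa in WT Mki67+/Mki67- to 0.087.

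Alternatives chosen after seeing the data were female cells only, with a stem-like median of −0.12, a count of 6, macrophage-like/stem-like in KO of 1.95, macrophage-like 0.34, erythroid-like −0.031, monocyte-like 0.13, Kit+Cd34+ 0.089 and Neu1 in neutrophil-like cells turned to −0.12, and macrophage-like cells of no other gate but monocyte, with 2.04, 2.35 and 0.27. For these shifts the cause was not tested. Leaving out cells of several lineage gates left too few macrophage-like cells for a value, as thinning did in several classes. No paired analysis was possible because a genotype has only 1 library, which leaves 1 pair. Depth limits the factors and Mcoln1, each with 37 or fewer UMIs a library in stem-like cells.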

Other observations

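Hepatocyte-like (28 WT and 58 KO cells) and megakaryocyte-like cells (19 and 44) were too few for the comparisons above and are given as levels. Hepatocyte-like cells had 428 and 431 CPM of Ctsl in WT and KO, above the 254 and 294 CPM of macrophage-like cells. Npc1 had 30.2 and 32.3 CPM, above 16.2 and 30.2 CPM in macrophage-like cells, and Gaa 37.1 and 44.1 CPM, above 29.4 and 37.4. Npc1 and Gaa were counted above as highest in macrophage-like cells because hepatocyte-like cells were not among the classes compared. Tfeb had 11.0 and 9.24 CPM in hepatocyte-like cells, and Tfe3 had 8.24 and 12.3 CPM. Megakaryocyte-like cells had 18.9 and 34.9 CPM of Ctsl and 81.7 and 109 CPM of Cd63, which is a protein of platelet granules.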
